A study of Mus musculus with 3 samples.

Results

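Conjugating enzymes attach glutathione, glucuronate or sulfate to foreign and endogenous compounds. Their genes were taken as every gene whose symbol in the array annotation began with Gst plus one of the class letters a, k, m, o, p, t and z, or with Mgst, Ugt or Sult, followed by a digit. The rule used names and no measured value, and it found 56 genes of 20738, represented by 96 features: 21 glutathione S-transferases, 3 microsomal glutathione S-transferases, 15 UDP-glucuronosyltransferases and 17 sulfotransferases. Each of 3 dual-channel arrays compared whole proximal jejunum RNA of a different mouse lacking Sox4 through villin-Cre (Cy5) with wild-type whole proximal jejunum RNA (Cy3). Villin-Cre acts in the epithelium of the gut, so muscle, fat, blood and immune cells of the same piece of tissue keep the gene. Age, sex and strain are not given in the labels used here, and the labels do not say if the wild-type RNA was pooled from several mice. Values are log2 ratios of Sox4 knockout over wild type, given as the mean ± SD over n = 3 arrays, and they carry no level of either genotype. They were read as Cy5 over Cy3, and every sign would turn if the table held the opposite ratio.

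Glutathione S-transferases join the thiol of glutathione to reactive electrophiles, in the cytosol or, for the microsomal enzymes, in membranes. UDP-glucuronosyltransferases of the endoplasmic reticulum transfer glucuronate from UDP-glucuronate to steroids, bile acids, bilirubin and drugs. Cytosolic sulfotransferases take sulfate from the donor PAPS (3'-phosphoadenosine 5'-phosphosulfate). In the small intestine absorptive enterocytes are known as the main site of these enzymes, which modify compounds from food before they reach the liver.

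Genes outside the members also differed between knockout and wild-type RNA. Whether the cell type markers differed through the loss of Sox4 was not tested. Sox4 itself averaged -0.31 ± 0.44 (limma adjusted p = 0.332) and was at -0.66, 0.18 and -0.46 on arrays 1, 2 and 3 as the mean of 3 features that differed. These had -1.21, -0.72 and -0.93 in the first, -0.82, 0.03 and -0.43 in the second, and 0.06, 1.23 and -0.02 in the third, so that 1 of 3 features lay below 0 on array 2. Which features lie in the deleted part of the gene is not given in the sources used here. The Y-linked Eif2s3y averaged -7.28 ± 0.25 and Uty -3.05 ± 0.91, and Xist averaged 1.71 ± 0.18, so sex and genotype cannot be told apart in any value below. Of 7 fat markers, all had a mean below 0, 6 were below 0 on every array and 5 passed an adjusted p of 0.05, with means from -5.95 to -0.12. Of 7 liver markers, 6 had a mean below 0 and none passed, with a median of -0.50. The lowest were Serpina1a at -1.57 ± 0.57 and Alb at -1.56 ± 0.74. Ttr at -0.12 ± 0.47 and Fgb at -0.07 ± 0.06 lay near 0, and Cps1 was above 0 on every array, at 0.30 ± 0.16. Of 5 blood markers, all were below 0 on every array and 2 passed. Of 8 enteroendocrine markers 4 passed, all lower, with a median of -1.21. Crypt and cycling markers had a median of 0.43 (4 of 5 higher at an unadjusted p under 0.05, and the stem cell gene Lgr5 lower, at -0.43 ± 0.34), goblet cell markers of 0.17, Paneth cell markers of 0.06, leukocyte markers of 0.06, tuft cell markers of -0.08, smooth muscle markers of -0.19 and pancreas markers of -0.27, and none of these passed. Among 12 enterocyte markers none was lower at an unadjusted p under 0.05 and 3 were higher, with a median of -0.01. The list was split, with 6 means below 0 and 6 above, from -0.47 (Lct) to 0.83 (Anpep). Beside these marker counts, 0.328% of all genes passed and 27.3% were below 0 on every array. At an unadjusted p under 0.05, 14.3% of all genes were lower and 12% higher. Of 6 mast cell markers, the median was -3.86, 0.02 and -2.74 on arrays 1, 2 and 3. The part of other cell types in the values below was not tested, and in whole tissue fewer cells of a type and less RNA per cell cannot be told apart.

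None of the 56 genes passed an adjusted p of 0.05 in limma's test, in either direction, where 0.328% of all genes did. At an unadjusted p under 0.05, 29 were lower and 2 higher in the knockout, beside 14.3% and 12% of all genes, which makes 31 in either direction beside 26.3%. At an adjusted p under 0.1, 20 members were lower (5.29% of all genes) and 1 higher (4.78% of all genes). Below 0 on every array were 35 members (27.3% of all genes), and above 0 on every array were 5 (23.2% of all genes). The median of the members was -0.40, and that of all genes -0.03, with member medians of -0.34, -0.41 and -0.36 on arrays 1, 2 and 3. A mean at or below -0.5 was found for 22 members, beside 7.47% of all genes, and one at or below -1 for 8, beside 1.19% of all genes. A mean at or above 0.5 was found for 2 members, beside 5.85% of all genes. The count of 0 depended on the processing. With features that hold a ratio of exactly 0 left out, an alternative chosen after seeing the data, Ugt2b5, Gstk1, Gstm1 and Sult6b1 passed (adjusted p from 0.0451 to 0.0481) and 0.835% of all genes did. With arrays scaled to a common spread, Ugt2b5, Ugt2b36, Gstk1 and Sult6b1 passed (adjusted p from 0.0450 to 0.0454) beside 0.752% of all genes, and without array 2 Ugt2b5 was past it (adjusted p = 0.0342) beside 0.318% of all genes (0.231% lower and 0.0868% higher).

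**Figure D1:**
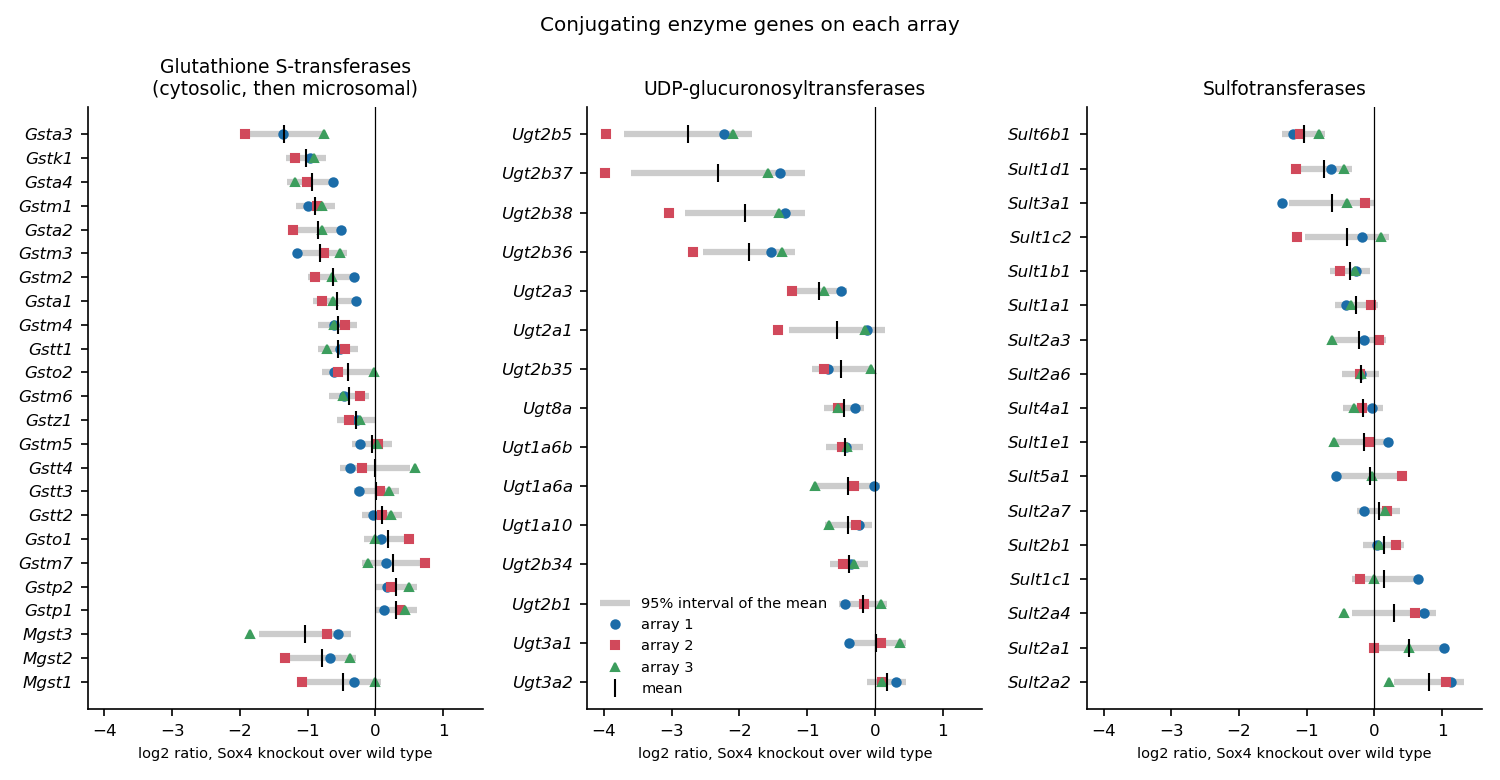
Log2 ratio of Sox4 knockout over wild type (x axis) for each of the 56 genes, by enzyme class, with points for arrays 1, 2 and 3, a black tick for the mean and a grey bar for the 95% interval of limma's moderated test. The 4 lowest means, from -2.76 to -1.86, belong to Ugt2b genes, and the highest, 0.80, to Sult2a2.

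The 4 lowest means among the 56 genes all belonged to the Ugt2b subfamily, whose enzymes glucuronidate steroids, bile acids and many drugs. Ugt2b5 had ratios of -2.22, -3.97 and -2.10 on arrays 1, 2 and 3, a mean of -2.76 ± 1.04 (6.79-fold lower, 95% interval -3.71 to -1.81, adjusted p = 0.0600), the 11th lowest mean of all 20738 genes. Ugt2b37 had -1.40, -3.98 and -1.58 (mean -2.32 ± 1.44, adjusted p = 0.0838). Array 2 was the lowest in both, by more than 1 log2 unit, and arrays 1 and 3 lay close together. Ugt2b38 had -1.32, -3.04 and -1.41 (mean -1.92 ± 0.97, adjusted p = 0.0702), and Ugt2b36 had -1.54, -2.68 and -1.37 (mean -1.86 ± 0.71, adjusted p = 0.0625). All 12 values of these genes were at or below -1.32, and the array with the lowest value was again array 2. Of the 7 liver markers, 3 were lowest on array 2, beside 37.9% of all genes. These were Serpina1a (-1.21, -2.23 and -1.28), Alb (-1.61, -2.27 and -0.80) and Ttr (-0.355, -0.422 and 0.427). The other 4 were lowest on array 1. The part of liver RNA in the values of the Ugt2b genes was not tested. Each of the 4 genes rests on 1 feature, and whether these features also take up RNA of the other closely related Ugt2b genes was not tested.

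The promoters of these 4 genes are shown because they hold a stretch of sequence in common. Each is the RefSeq window of 250 bases before to 50 after the start (GRCm38.p6, all on the minus strand), at chr5:87140291-87140590 for Ugt2b5, chr5:87254739-87255038 for Ugt2b37, chr5:87424154-87424453 for Ugt2b38 and chr5:87092506-87092805 for Ugt2b36. Capitals mark the longest run shared exactly by the first 3 genes, 62 bases, and in Ugt2b36 the longest run shared by all 4, 22 bases.
Ugt2b5: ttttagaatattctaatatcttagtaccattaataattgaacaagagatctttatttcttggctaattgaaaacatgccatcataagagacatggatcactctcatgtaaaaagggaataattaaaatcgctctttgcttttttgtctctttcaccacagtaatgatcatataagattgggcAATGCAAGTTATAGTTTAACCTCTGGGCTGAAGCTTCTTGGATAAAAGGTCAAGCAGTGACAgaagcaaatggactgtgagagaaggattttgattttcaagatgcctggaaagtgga
Ugt2b37: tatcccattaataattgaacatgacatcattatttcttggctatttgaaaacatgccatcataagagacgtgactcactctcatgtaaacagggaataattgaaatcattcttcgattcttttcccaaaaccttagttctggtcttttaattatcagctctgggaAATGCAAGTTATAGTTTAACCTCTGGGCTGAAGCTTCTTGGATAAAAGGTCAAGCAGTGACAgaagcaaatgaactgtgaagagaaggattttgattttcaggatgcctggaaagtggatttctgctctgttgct
Ugt2b38: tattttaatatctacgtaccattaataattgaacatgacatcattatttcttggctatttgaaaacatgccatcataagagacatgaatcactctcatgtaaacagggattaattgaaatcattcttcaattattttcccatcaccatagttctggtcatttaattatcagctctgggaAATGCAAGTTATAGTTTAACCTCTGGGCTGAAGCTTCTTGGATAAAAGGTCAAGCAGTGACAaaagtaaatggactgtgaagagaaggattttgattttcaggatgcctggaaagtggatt
Ugt2b36: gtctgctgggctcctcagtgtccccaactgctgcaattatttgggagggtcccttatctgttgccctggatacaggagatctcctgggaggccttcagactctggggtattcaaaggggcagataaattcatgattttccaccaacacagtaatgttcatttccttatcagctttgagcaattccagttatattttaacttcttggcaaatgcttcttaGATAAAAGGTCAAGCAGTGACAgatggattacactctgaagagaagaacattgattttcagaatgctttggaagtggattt
The run of 22 bases, read on both strands, was found in the promoters of these 4 genes and in no other of 32851 RefSeq promoter windows. The run was taken from these related sequences themselves, so its absence elsewhere is no test of a link with the ratios. Over the whole window, Ugt2b37 and Ugt2b38 were 87.3% identical, Ugt2b5 and Ugt2b38 84.2%, and Ugt2b5 and Ugt2b37 76.5%, whereas Ugt2b36 was 61.2% to 63.5% identical to these 3. The promoters of Ugt2b1 and Ugt2b34, whose ratios lay nearer to 0, were 50.3% to 55.7% identical to those of the 4 genes. That of Ugt2b35, whose mean of -0.50 also lay nearer to 0, was 58.3% to 61.5% identical, close to the values of Ugt2b36. For comparison, the promoters of Ugt2a3 and Ugt2a1 were 52.4% identical to each other. The match is a description of these windows and says nothing of a factor that binds there.

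The other Ugt2 genes were nearer to 0. Ugt2a3, known in humans to glucuronidate bile acids, had -0.50, -1.23 and -0.76 (mean -0.83 ± 0.37, adjusted p = 0.0773). Ugt2b35 averaged -0.50 ± 0.38, Ugt2b34 -0.38 ± 0.08 and Ugt2b1 -0.17 ± 0.27, the last with both signs among its arrays. Ugt2a1, an enzyme of the olfactory epithelium, had -0.11, -1.44 and -0.15, so that array 2 set its mean of -0.57 ± 0.75. In the RefSeq order along chromosome 5, the members run Ugt2b34, Ugt2b1, Ugt2b35, Ugt2b36, Ugt2b5, Ugt2b37, Ugt2a3, Ugt2b38, Ugt2a1, Sult1b1, Sult1d1 and Sult1e1. The 4 lowest genes thus stood next to each other among the members, with Ugt2a3 between them, and members on either side had means of -0.57 or higher except Sult1d1 (-0.75 ± 0.37). Array 2 held the lowest value in 6 of 7 Ugt2b members and in both Ugt2a members, whereas it held the lowest value in 37.9% of all genes.

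**Figure D2:**
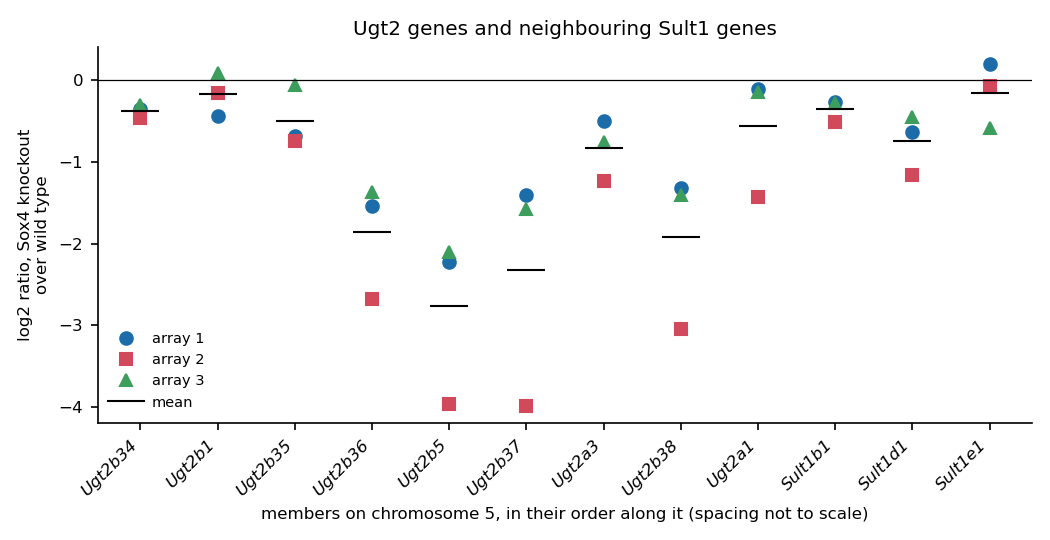
Log2 ratio of Sox4 knockout over wild type (y axis) for the 12 members on chromosome 5, in their order along it, with points for arrays 1, 2 and 3 and a black bar for the mean. Ugt2b36, Ugt2b5, Ugt2b37 and Ugt2b38 lie at or below -1.32 on every array, and array 2 is the lowest in each of them.

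The Ugt1a genes, which share their last exons and include the enzymes of bilirubin and phenol conjugation, were measured through 3 symbols. Ugt1a6b had -0.43, -0.49 and -0.41 (mean -0.44 ± 0.04, 95% interval -0.72 to -0.17, adjusted p = 0.0935). This is the mean of 2 features that differed, at -0.18, -0.55 and -0.14 in one and at -0.69, -0.43 and -0.68 in the other. Ugt1a6a averaged -0.40 ± 0.44 and Ugt1a10 -0.40 ± 0.25, both below 0 on every array, and whether the features tell the isoforms apart was not tested. Ugt8a, which makes galactosylceramide, averaged -0.46 ± 0.14 (adjusted p = 0.0998). Ugt3a1 and Ugt3a2, whose human counterparts use sugars other than glucuronate, were the members of the class with a mean above 0. Ugt3a1 had -0.39, 0.08 and 0.37 (mean 0.02 ± 0.38), whose sign turned without array 2 or array 3, and Ugt3a2 had 0.31, 0.11 and 0.11 (mean 0.18 ± 0.12, adjusted p = 0.371). Of the 15 UDP-glucuronosyltransferase genes, 12 were below 0 on every array, beside 27.3% of all genes. At an unadjusted p under 0.05, 10 were lower and 0 higher, beside 14.3% and 12% of all genes, and the median was -0.46.

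Of the 21 cytosolic, mitochondrial and peroxisomal glutathione S-transferase genes, 13 were lower and 1 higher at an unadjusted p under 0.05, beside 14.3% and 12% of all genes, and the median was -0.40. The 4 alpha class genes, detoxifying lipid peroxidation products among other substrates, were below 0 on every array. Gsta3, known in mice for conjugating aflatoxin epoxide, had -1.36, -1.92 and -0.76 (mean -1.35 ± 0.58, 2.54-fold lower, adjusted p = 0.0663), and its 2 features had means within 0.5 of each other. Gsta4, whose enzyme clears 4-hydroxynonenal, had -0.62, -1.004 and -1.18 (mean -0.94 ± 0.29, adjusted p = 0.0640). Gsta2 averaged -0.84 ± 0.36 and Gsta1 -0.57 ± 0.26, and cross-hybridisation between these 2 close relatives was not tested.

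Gstk1, a kappa class enzyme of mitochondria and peroxisomes, had the smallest p of all members. Its ratios were -0.97, -1.19 and -0.91 (mean -1.02 ± 0.14, 2.03-fold lower, 95% interval -1.32 to -0.73, adjusted p = 0.0541). The mu class gene Gstm1 had -0.998, -0.86 and -0.80 (mean -0.89 ± 0.10, 1.85-fold lower, adjusted p = 0.0543). The arrays of Gstk1, measured by 1 feature, lay within a narrow band. The narrow band of Gstm1 is that of a mean of 2 features, which had -1.40, -1.51 and -0.95 in one and -0.59, -0.22 and -0.64 in the other. Array 2 was the lowest in one of them and the highest in the other, and both lay below 0 on every array. Gstm3 averaged -0.81 ± 0.32, Gstm2 -0.62 ± 0.29, Gstm4 -0.56 ± 0.09 and Gstm6 -0.39 ± 0.14, all below 0 on every array. The features of Gstm4 and Gstm6 differed, with means from -0.78 to -0.34 and from -0.74 to -0.19. On array 2, 1 feature of Gstm6 was at 0.048. Gstm5, at -0.05 ± 0.15, and Gstm7, at 0.26 ± 0.43, had both signs among their arrays. All 7 mu class genes follow each other on chromosome 3, and cross-hybridisation between them was not tested.

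Gstm7 and Gsta4 were measured by 11 and 10 features, which shows the spread of these features within an array. Whether they are repeats of the same probe or different probes was not tested. Of 20 members with several features, 16 had feature means within 0.5 of each other, whereas those of Gstm1 were -1.29 and -0.48. Gstm7 had feature ratios from -0.01 to 0.37 on array 1, from 0.68 to 0.84 on array 2 and from -0.22 to 0.08 on array 3. Array 2 did not overlap the others, and the SD over features was 0.11, 0.05 and 0.09 on arrays 1, 2 and 3, against an SD of 0.43 between arrays. Gsta4 features ranged from -0.72 to -0.32 on array 1, from -1.07 to -0.91 on array 2 and from -1.30 to -0.97 on array 3, and the SD over features was at most 0.12, against 0.29 between arrays. The ranges of arrays 2 and 3 overlapped for Gsta4. Features of an array share its RNA, so their spread is technical, whereas that between arrays also holds the difference between mice.

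**Figure D3:**
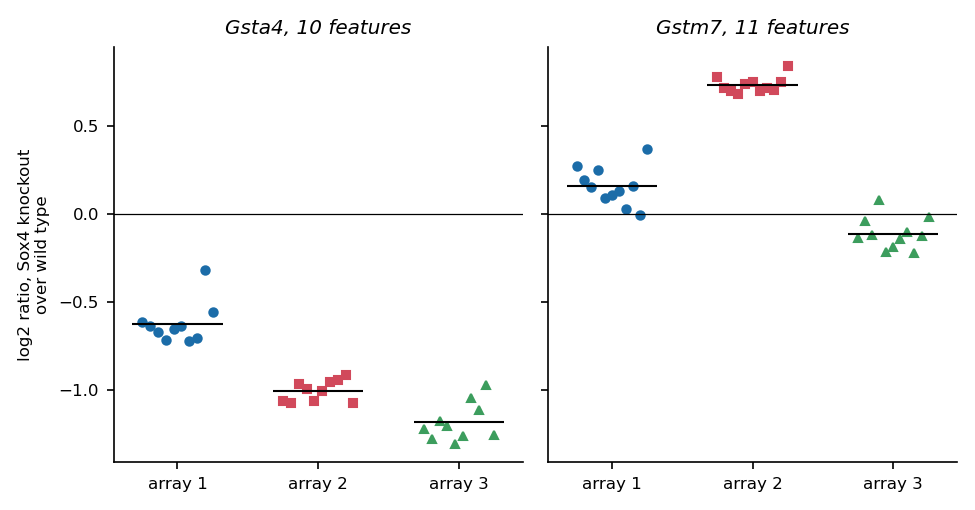
Log2 ratio of Sox4 knockout over wild type (y axis) of every feature of Gsta4 (10 features, left) and Gstm7 (11 features, right) on arrays 1, 2 and 3, with a black line at the mean of each array. Gsta4 lies below 0 in every feature and array, and Gstm7 on array 2 (0.68 to 0.84) lies above all its values on the other arrays.

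The pi class genes lay above 0. Gstp1, a widely expressed transferase, had 0.12, 0.36 and 0.44 (mean 0.31 ± 0.17, 1.24-fold higher, adjusted p = 0.189), and Gstp2 had 0.17, 0.23 and 0.50 (mean 0.30 ± 0.18, adjusted p = 0.199). The 2 genes are near copies, and their features differed, with means of 0.68 and -0.06 for Gstp1 and of 0.56 and 0.05 for Gstp2. Gstp1 was the only member whose features differed in the sign of their mean.

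The remaining classes were mixed. Gstt1, a theta class enzyme, had -0.52, -0.44 and -0.71 (mean -0.56 ± 0.14, adjusted p = 0.0815), while its neighbours Gstt2, Gstt3 and Gstt4 had means between -0.00 and 0.10 with both signs among their arrays. Gstz1, which also acts in tyrosine breakdown, averaged -0.29 ± 0.08 and was below 0 on every array. The omega class genes Gsto2 and Gsto1, neighbours on chromosome 19, averaged -0.40 ± 0.33 and 0.19 ± 0.27. All 3 microsomal genes were below 0 on every array, beside 27.3% of all genes, with a median of -0.79, or -0.52 without array 2. Mgst3, which has glutathione peroxidase and leukotriene C4 synthase activity, had -0.55, -0.71 and -1.85 (mean -1.04 ± 0.71, adjusted p = 0.1001), so array 3 set the size of its mean, in both of its features. Mgst2, a leukotriene C4 synthase, had -0.66, -1.34 and -0.37 (mean -0.79 ± 0.50, adjusted p = 0.0998). Mgst1 averaged -0.47 ± 0.55 and was at only -0.0085 on array 3, where its 2 features had 0.058 and -0.075.

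Sulfotransferases were the class nearest to all genes, with a median of -0.17, and 4 of 17 were lower and 1 higher at an unadjusted p under 0.05, beside 14.3% and 12% of all genes. Without array 3 this median was -0.0845. Sult6b1 had -1.21, -1.10 and -0.83 (mean -1.05 ± 0.20, 2.07-fold lower, 95% interval -1.37 to -0.73, adjusted p = 0.0543). Sult1d1, which sulfates catecholamines in mice, had -0.64, -1.16 and -0.45 (mean -0.75 ± 0.37, adjusted p = 0.0845), and its 2 features had means of -0.86 and -0.64. Its neighbour Sult1b1, acting on phenols and thyroid hormone, averaged -0.35 ± 0.14, and Sult1a1, the main phenol sulfotransferase, averaged -0.27 ± 0.19. Sult1e1, the oestrogen sulfotransferase, had both signs (mean -0.16 ± 0.40), as did Sult1c1 (0.14 ± 0.45) and Sult1c2 (-0.41 ± 0.65, with -1.14 on array 2). Sult3a1, an amine sulfotransferase, had -1.36, -0.14 and -0.40 (mean -0.63 ± 0.64). Sult4a1 averaged -0.17 ± 0.14 and Sult5a1 -0.07 ± 0.49.

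The enzymes of the Sult2a genes sulfate bile acids and dehydroepiandrosterone. Sult2a2 and Sult2a1, each measured by 1 feature, held the highest means of all members, whereas Sult2a3 and Sult2a6 had means below 0. Sult2a2 had 1.14, 1.06 and 0.22 (mean 0.80 ± 0.51, 1.74-fold higher, 95% interval 0.28 to 1.32, adjusted p = 0.0998), above 0 on every array. Sult2a1 had 1.03, 0.00 and 0.51 (mean 0.52 ± 0.52, adjusted p = 0.195), and Sult2a4 had 0.73, 0.60 and -0.46 (mean 0.29 ± 0.65). The value of Sult2a1 on array 2 is exactly 0, and 2486 of 188928 deposited ratios are exactly 0, beside 356 at 0.001 or -0.001. What an exact 0 stands for is not given in the sources used here, so the ratio of Sult2a1 on array 2 is uncertain, as is that of Sult2a6 (mean -0.20), 1 of whose 3 features is listed at 0 on every array. Sult2a3 averaged -0.23 ± 0.35 and Sult2a7 0.06 ± 0.18, and Sult2b1, the cholesterol sulfotransferase, averaged 0.14 ± 0.15. The Sult2a genes are close copies that follow each other on chromosome 7, and cross-hybridisation between them was not tested.

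**Figure D4:**
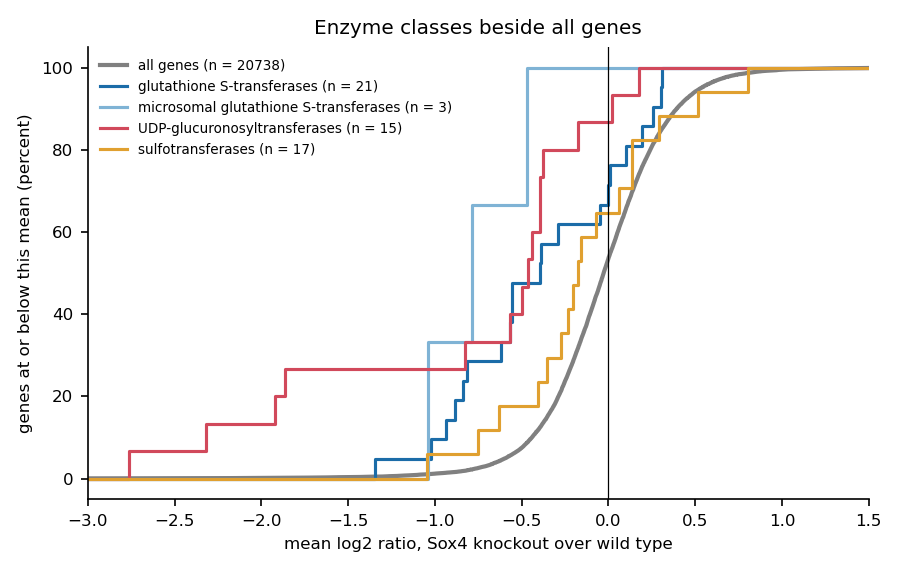
Share of genes (y axis, percent) with a mean log2 ratio of Sox4 knockout over wild type at or below the value on the x axis, for the 4 enzyme classes and for all 20738 genes. The curves of the glutathione S-transferases (median -0.40), microsomal enzymes (-0.79) and UDP-glucuronosyltransferases (-0.46) lie left of that of all genes (-0.03) at their medians, and that of the sulfotransferases (-0.17) lies closest to it there.

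The promoter windows of the members in RefSeq's table, 59 windows of 48 members, were searched on both strands for short motifs, which are descriptions of letters and not of binding. The antioxidant response core TGACNNNGC was found in 6.78% of member windows (in Gsta3, Gstm5, Gstm7 and Mgst1) and in 12.4% of all 32851 windows. The HNF4-type motif CAAAGTCCA was found in the window of Sult1b1, beside 0.475% of all windows. The SOX-type motif AACAAAG was found in the window of Sult1c1, beside 5.85% of all windows. TATAAA was found in 16.9% of member windows and 13.6% of all windows.

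Genes that supply or use the same substrates were measured alongside. Their counts at an unadjusted p under 0.05 stand beside 14.3% of all genes lower and 12% higher. Counts past the adjusted threshold stand beside 0.328% of all genes. Of 20 genes of glutathione supply and turnover, none passed the adjusted threshold, and 5 were lower and 1 higher at an unadjusted p under 0.05. Glo1, which clears methylglyoxal with glutathione, had -0.59 ± 0.09, Gclc, the catalytic subunit of the rate-limiting enzyme of glutathione synthesis, -0.51 ± 0.09, and Dpep1, a dipeptidase that cleaves cysteinylglycine, -0.47 ± 0.17. Gclm, the other subunit, had 0.03 ± 0.22, a value chosen after it was seen. Of 7 genes of UDP-glucuronate supply and glucuronide cleavage, none passed, and 3 were lower and 0 higher at an unadjusted p under 0.05. These were Ugp2, which makes UDP-glucose (-0.40 ± 0.10), Ugdh, which oxidises it to UDP-glucuronate (-0.40 ± 0.15), and the phosphoglucomutase Pgm1 (-0.35 ± 0.13).

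Of 12 genes of sulfate and PAPS supply and sulfate removal, 1 passed, and 4 were lower and 3 higher at an unadjusted p under 0.05. Slc13a4, a sodium-coupled sulfate transporter, fell, with ratios of -1.19, -1.06 and -1.22 (mean -1.16 ± 0.08, 2.23-fold lower, adjusted p = 0.0434). Tpst2, a protein tyrosine sulfotransferase, had -0.38 ± 0.09 and the sulfate exchanger Slc26a1 0.39 ± 0.19, neither past the threshold. Of 7 exporters of conjugates none passed, and 2 were lower and 1 higher at an unadjusted p under 0.05. Abcg2, an apical exporter, averaged -0.56 ± 0.29, Abcc1 0.39 ± 0.14 and Abcc2, the apical exporter of glutathione and glucuronate conjugates, -0.39 ± 0.28.

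Of 13 related enzymes outside the symbol rule, 1 passed and 6 were lower at an unadjusted p under 0.05. Inmt, an amine N-methyltransferase, fell, with -1.37, -1.20 and -1.14 (mean -1.24 ± 0.12, adjusted p = 0.0404). Both calls, of Slc13a4 and Inmt, ended when any 1 array was left out (adjusted p from 0.0661 to 0.234). Glyat, which conjugates glycine, averaged -1.22 ± 0.54 and the thiopurine methyltransferase Tpmt -0.70 ± 0.19, neither past the threshold. Of 15 regulators none passed, and 2 were lower at an unadjusted p under 0.05, which is 13.3% beside 14.3% of all genes. The 3 with the smallest p were Ahr, the dioxin receptor, at -0.38 ± 0.15, Ppara, a fatty acid receptor, at -0.40 ± 0.31 and Maff at -0.34 ± 0.27. Nfe2l2 (Nrf2), whose targets include alpha and mu class transferases, averaged -0.39 ± 0.46, and the xenobiotic receptor gene Nr1i2 0.15 ± 0.05, both chosen after their values were seen.

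**Figure D5:**
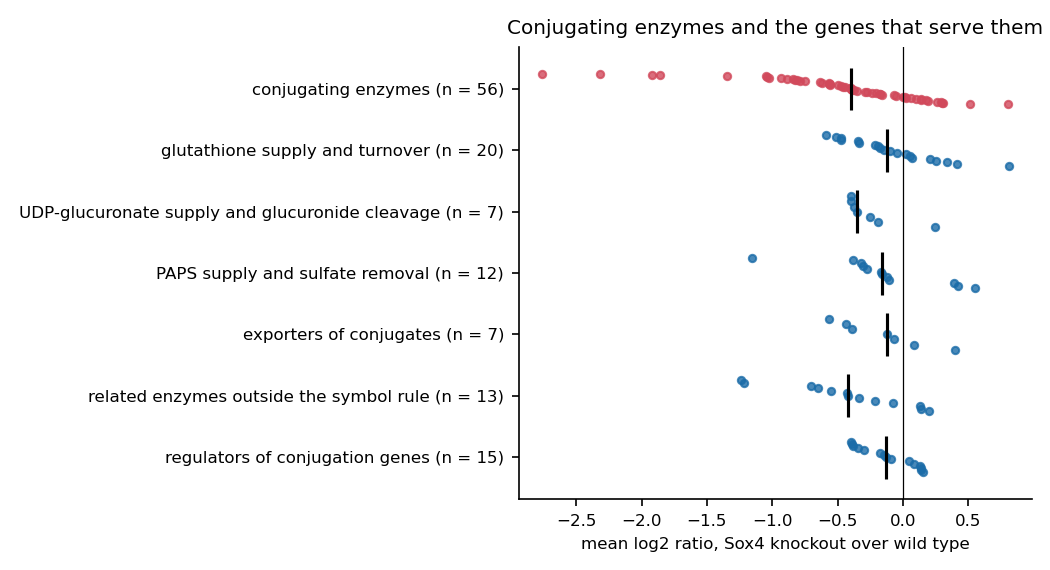
Mean log2 ratio of Sox4 knockout over wild type (x axis) of each gene, for the 56 conjugating enzymes (top, red) and 6 lists of genes that serve them (blue), with a black line at the median of each list. Medians run from -0.42 for related enzymes outside the symbol rule to -0.12 for exporters and for glutathione supply, and the conjugating enzymes are at -0.40.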

How the data were processed

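Per the labels, RNA of whole proximal jejunum was labelled with Cy5 (Sox4 knockout) and Cy3 (wild type) and hybridised on 3 arrays with no dye swap, so dye and genotype cannot be told apart. The deposited values were taken as log2 ratios; the table states neither log base nor direction, and both were inferred from its range and the dyes, so folds would be larger under the natural log. The authors had normalised them, with array medians of 0.007, 0.003 and 0.011, and no intensities were used here, so signal over background is unknown. Arrays correlated at r = 0.438 to 0.514 over 62976 features. Of these, 31465 carried 1 symbol (updated through RefSeq's GRCm38.p6 gene table for names only) and 31511 were unnamed here. Features were averaged to 20738 genes and limma 3.58.1 (R 4.3.3) compared each mean ratio with 0 (moderated, two-sided, Benjamini-Hochberg over all genes, 3.51 prior degrees of freedom), with no filter. The p-values measure only the spread between these 3 arrays, and whether this holds the spread between wild-type mice is not given. The procedure was tested on data simulated with independent genes, where large set changes had to be found with the right sign. That does not test the p-values of these arrays. Promoter sequences are RefSeq's, and 1 further motif that was searched is not reported here.

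The members, gene lists and tests were chosen with earlier results of these data known. Values on each array were given for the 6 lowest and 6 highest means, the 2 smallest p-values per class and direction, and members whose features differ in sign; other members shown this way were chosen after their values were seen. From each list of related genes, those past the threshold and the 3 smallest p-values were named. Features that share sequence between close relatives could not be separated.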

Additional observations from a re-analysis of the deposited data

How the results depend on the processing

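Leaving out 1 array at a time, taking the median of features, centring or scaling the arrays, a robust prior, annotation symbols as given, and features fitted singly were tried, and leaving out features with a ratio of exactly 0 was added after seeing the data. Counted as the ratio of 1 member under 1 alternative, 538 kept their direction and side of the threshold, 12 turned direction and 9 came past the threshold. No member passed in the main fit, so staying on the same side of the threshold is no sign of stability. The 68 genes past the threshold became 4 to 66 with 1 array left out (10 without array 1, 66 without array 2, 4 without array 3), 156 with scaling and 170 without exact zeros. The members past it, lower, were 0 to 1 with 1 array left out (Ugt2b5 at -2.16 without array 2), 4 with scaling and 4 without exact zeros. Members higher at an unadjusted p under 0.05 were 0 to 2 with 1 array left out (0 without array 1), 1 with the median of features and 4 each with centring and scaling, against 2. Members above 0 on every array left were 6 to 10, with 10 without array 1, against 5, since fewer arrays have to share the sign. For the unadjusted and the same-sign counts, the shares of all genes under these settings are not given here. Those member counts therefore cannot be read against all genes. With 1 array left out, medians ran from -0.40 to -0.36 over all members, from -0.54 to -0.42 for UDP-glucuronosyltransferases, from -0.48 to -0.35 for glutathione S-transferases, from -0.85 to -0.52 for microsomal enzymes (-0.52 without array 2) and from -0.21 to -0.0845 for sulfotransferases (-0.0845 without array 3). Features fitted singly gave -0.57 for UDP-glucuronosyltransferases and -0.56 for glutathione S-transferases. In that setting each gene was represented by its feature with the smallest p, a choice that favours ratios far from 0. Members near 0 turned sign with 1 array left out, where Gstm5 ran from -0.0975 to 0.034, Gstt3 from -0.0825 to 0.14, Gstt4 from -0.29 to 0.19, Sult1c1 from -0.11 to 0.31, Sult1e1 from -0.34 to 0.0565, Sult5a1 from -0.31 to 0.18 and Ugt3a1 from -0.15 to 0.23. Gstt4 was at 0.018 with centring and 0.032 with scaling. The cause was not tested. Each array holds both genotypes and gives 1 ratio, so the test already compared them within arrays and no further pairing was possible. The number of arrays limits the precision, and the depth of signal is unknown.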

Other observations

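Under their present names 3 further genes belong to the sulfotransferases but carry another symbol in the array annotation, so the rule left them out. Sult2a8 averaged -0.16 ± 0.12, Sult6b2 -0.10 ± 0.21 and Sult3a2 0.31 ± 0.43 on the log2 scale (SD, n = 3 arrays), and none passed an adjusted p of 0.05 in limma's test.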
